A study of Mus musculus with 8 samples.

Results

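The 45 genes described here encode lysosomal, V-ATPase and autophagy proteins together with the MiT/TFE transcription factors, and were taken by symbol from the 32285 genes of the count matrices. All 45 were found once. They comprise 10 lysosomal membrane proteins and transporters, 8 cathepsins and other proteases, 10 glycosidases, lipid enzymes and activators, 9 V-ATPase subunits and accessory proteins, 5 autophagy genes and 3 MiT/TFE factors. Single nuclei RNA sequencing of the ventricular-subventricular zone (V-SVZ), the germinal niche beside the lateral ventricle, was performed on 8 mice at postnatal day 90, with 1 library per mouse. 4 mice were labelled Control with a Tsc2 wild genotype (Tsc2 wt/wt) and 4 were labelled TSC with a Tsc2 mutant/mutant genotype (Tsc2 mut/mut). Nuclei positive for tdTomato, a red reporter carried at the Rosa26 locus and switched on by Cre recombinase, were sorted in both genotypes. The mutant allele was the conditional Tsc2tm1.1Mjg allele. The study used both Cre plasmid electroporation of neonates and a tamoxifen-dependent Nestin-CRE-ERT2 line, and its sequencing methods do not state which of these marked the sorted nuclei. Because barcodes carry no record of recombination, the values below describe sorted mixtures and not nuclei known to lack Tsc2.

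Lysosomes break down proteins, glycans and lipids with acid hydrolases, among them the cathepsins and the glycosidases. The V-ATPase, a rotary proton pump with a cytosolic V1 and a membrane V0 sector, acidifies the lumen. Autophagy delivers cargo to lysosomes in vesicles that are decorated with LC3 and GABARAP proteins, to which receptors such as Sqstm1 bind. Tfeb, Tfe3 and Mitf are helix-loop-helix factors that activate many lysosomal genes, and mTORC1, which the Tsc1-Tsc2 complex restrains at the lysosomal surface, holds them in the cytoplasm by phosphorylation. In the brain, microglia are known for a high content of lysosomal proteases.

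The promoters are shown because MiT/TFE factors bind the E-box CACGTG, best within the longer palindrome TCACGTGA. RefSeq windows from 250 bases before to 50 bases after the annotated start (GRCm38.p6) were available for 39 of the 45 genes. TCACGTGA occurred in 6 of these 39 windows (15.4%) and in 304 of 27025 genes with a window (1.12%). CACGTG, which every TCACGTGA contains, occurred in 11 of 39 (28.2%) against 8.09% of all genes. Both motifs are their own reverse complements, so 1 search covers both strands, and a match is a run of letters, not a measured binding site. The 6 windows with TCACGTGA follow, each 5′ to 3′ on the strand of the gene with the motif in capitals.
Mcoln1, chr8:3500447-3500506, plus strand: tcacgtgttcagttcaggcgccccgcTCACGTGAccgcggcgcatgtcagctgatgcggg
Cln3, chr7:126583325-126583384, minus strand: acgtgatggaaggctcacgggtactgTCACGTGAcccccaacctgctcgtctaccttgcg
Ctsa, chr2:164833734-164833772, plus strand: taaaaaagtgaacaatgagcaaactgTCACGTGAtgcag
Ctsd, chr7:142387893-142387952, minus strand: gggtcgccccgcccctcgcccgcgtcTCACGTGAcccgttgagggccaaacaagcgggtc
Atp6v1a, chr16:44139358-44139417, minus strand: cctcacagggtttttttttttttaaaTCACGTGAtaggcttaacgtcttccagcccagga
Atp6v0d1, chr8:105566050-105566079, minus strand: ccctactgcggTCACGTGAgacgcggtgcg

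These 6 genes encode a calcium channel of the lysosomal membrane (Mcoln1), the membrane protein lost in juvenile Batten disease (Cln3), the proteases cathepsin A and cathepsin D (Ctsa, Ctsd), and a V1 and a V0 subunit of the proton pump (Atp6v1a, Atp6v0d1). The motif began 46 bases before the RefSeq start in Mcoln1, 122 in Cln3, 13 in Ctsa, 99 in Ctsd, 132 in Atp6v1a and 4 in Atp6v0d1. By the gene bounds of the GENCODE M21 annotation, the motifs of all but Atp6v0d1 lie inside the gene. Their levels differed in pattern over the cell classes described below. Ctsd, Cln3 and Ctsa had their highest mean in microglia-like nuclei and Atp6v1a in choroid plexus-like barcodes. Atp6v0d1 had similar means in choroid plexus-like barcodes and in endothelial-like and microglia-like nuclei, and Mcoln1 was too low to be tested in any class.

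Barcodes with at least 300 detected genes were kept, which left 37881 from libraries of 11182335 to 36773832 UMIs. Of these, 3470 had fewer than 20% mitochondrial UMIs and are called nucleus-like, and 34411 are called mitochondria-rich. Nucleus-like barcodes were sorted into classes by listed marker genes, none of which is among the 45: a class needed at least 3 distinct markers and 2 more than the next class. 3265 passed, of which 1206 were astrocyte- or neural stem cell (NSC)-like, 564 oligodendrocyte-like, 538 microglia-like, 454 choroid plexus-like, 255 ependymal-like, 114 inhibitory neuron- or neuroblast-like and 71 endothelial-like. The classes were uneven over mice: 169 of the 199 nucleus-like barcodes of mut/mut mouse 4 were choroid plexus-like, against 1 of 191 in wt/wt mouse 3. Levels are given as CPM, the count scaled to a common total of non-mitochondrial UMIs per mouse and class, in mice with at least 10 barcodes of the class and as mean ± SD. The choroid plexus-like barcodes differ from the other classes in kind. The nuclear RNAs Malat1, Meg3, Neat1 and Snhg11 summed to 41.2 to 795 CPM in them, against 32973 to 47043 CPM in astrocyte- or NSC-like nuclei, and Ttr, the transthyretin gene, took 18.9 to 31.0% of their UMIs. The listed markers of each class summed to 15284 to 24494 CPM in microglia-like, 25419.7 to 38961 CPM in oligodendrocyte-like and 31002 to 36955 CPM in astrocyte- or NSC-like nuclei, the genes that the gate used. 166 of 37714 distinct kept barcode sequences occurred in more than 1 library. Choroid plexus-like barcodes are called barcodes and not nuclei, and each class count is also given without them.

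Tsc2 itself (chromosome 17, 24595816 to 24632630, GRCm38) was at 20.7 ± 1.29 CPM in kept barcodes of wt/wt mice and 18.7 ± 2.69 CPM in those of mut/mut mice (SD, n = 4 each). Libraries made from the 3′ end count any transcript that keeps that end, so this level does not check the deletion. Differences are log2 fold changes ± SE fitted by edgeR's quasi-likelihood method, adjusted p-values cover all genes tested in a comparison (Benjamini-Hochberg), and a gene is said to be higher or lower where adjusted p was below 0.05.

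Summed over the 45 genes, the choroid plexus-like and the microglia-like classes held the most lysosomal RNA. The sum was 7841 to 12189.5 CPM over 7 mice in choroid plexus-like barcodes and 5640.4 to 8664 CPM over 7 mice in microglia-like nuclei. It was 3475 to 3838 CPM in endothelial-like nuclei (4 mice), 2504 to 3677 CPM in oligodendrocyte-like nuclei (7 mice) and 1947 to 2564 CPM in astrocyte- or NSC-like nuclei (7 mice). Microglia-like nuclei of every mouse lay above all mice of these 3 classes. Ependymal-like nuclei (6 mice) summed to 1593 to 2058 CPM and inhibitory neuron- or neuroblast-like nuclei (4 mice) to 1248 to 2193 CPM. Barcodes with fewer than 200 genes, used as a measure of free RNA, summed to 3990.1 to 4385 CPM over 8 mice, above the astrocyte- or NSC-like, oligodendrocyte-like and endothelial-like values. By mean CPM, 19 genes were highest in choroid plexus-like barcodes, 16 in microglia-like nuclei, 4 in endothelial-like, 3 in oligodendrocyte-like and 1 each in the other 3 classes. Leaving out the choroid plexus-like class, 21 were highest in microglia-like, 14 in endothelial-like and 5 in oligodendrocyte-like nuclei. These counts take any lead, however small. Atp6v0d1 averaged 85.4 CPM in choroid plexus-like barcodes and 83.9 CPM in endothelial-like nuclei, and Mcoln1 led in endothelial-like nuclei on 5 UMIs. The share of all genes highest in each class was not computed. Psap, the precursor of the saposins that activate sphingolipid hydrolases, was among the most abundant of the set and reached 1259 ± 382 CPM in choroid plexus-like barcodes, 583 ± 240.5 CPM in microglia-like and 278 ± 66.6 CPM in astrocyte- or NSC-like nuclei. The heat map shows these means.

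**Figure D1:**
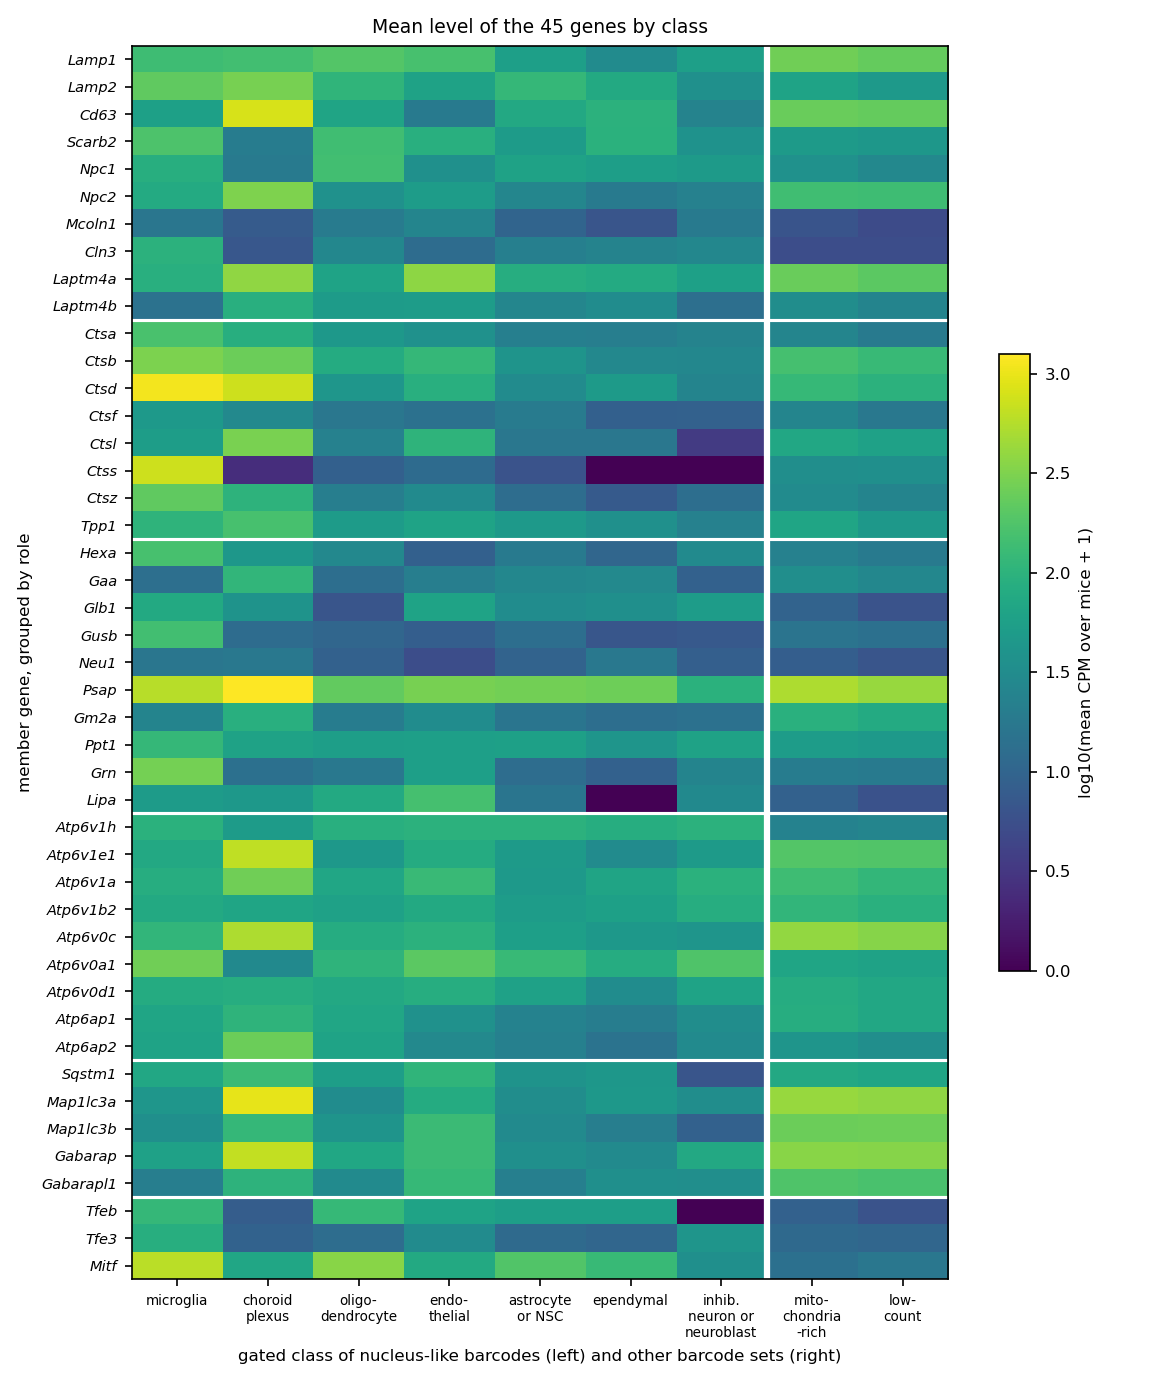
Mean level of each of the 45 genes, as log10 of CPM plus 1, in 7 gated classes and, right of the white line, in mitochondria-rich and low-count barcodes; white horizontal lines separate the role groups. Ctsd, Ctss and Mitf are brightest in microglia-like nuclei (Ctsd 1097 CPM, Ctss 729 CPM), and Map1lc3a, Gabarap and Cd63 in choroid plexus-like barcodes.

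Microglia-like nuclei had higher levels of proteases, glycosidases and other enzymes and MiT/TFE factors: 5 of 7 tested proteases, 5 of 8 enzymes and activators and all 3 factors were higher than in the other gated nuclei. Of 41 genes of the set tested, 16 were higher and 9 lower; 27.2% of all genes tested were called higher and 33.7% lower, against 39.0% and 22.0% of the tested members of the set. The median log2 fold change was 0.26 for the set and -0.12 for all genes. With choroid plexus-like barcodes left out of the reference, 24 of 37 were higher, 0 lower and the median was 0.79, beside -0.07 for all genes. Of all genes tested, 25.2% were then called higher and 31.7% lower. Among the proteases, Ctss, an elastolytic cathepsin of phagocytes, was at 914, 681, 931 and 662 CPM in wt/wt mice 1 to 4 and at 543, 875 and 496 CPM in mut/mut mice 1 to 3. All 7 values lay far above the 0 to 8.64 CPM of astrocyte- or NSC-like nuclei and the 22.1 to 42.7 CPM of low-count barcodes (log2 fold change 6.97 ± 0.30, adjusted p = 4.67e-13). Ctsd, the aspartic protease cathepsin D, was at 1006, 1059, 1579 and 1039.9 CPM in the wt/wt and 877, 1383 and 732 CPM in the mut/mut mice, with a log2 fold change of 2.43 ± 0.32 (adjusted p = 1.90e-06). The 2 genotypes overlapped for both genes. Ctsz rose by 2.40 ± 0.32, Ctsa by 1.84 ± 0.24 and Ctsb by 1.46 ± 0.19 on the log2 scale, while Ctsl, which the choroid plexus-like barcodes express, was lower (log2 fold change -0.95 ± 0.35). Without choroid plexus-like barcodes in the comparison Ctsl was too low to be tested.

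Among the enzymes and activators, Grn, the precursor of the granulins, was at 274, 224, 364 and 300.4 CPM in wt/wt mice 1 to 4 and 218, 409 and 206 CPM in mut/mut mice 1 to 3, and no other class exceeded 71.6 CPM in any mouse (log2 fold change 3.93 ± 0.24, adjusted p = 4.48e-11). Gusb, the beta-glucuronidase, averaged 145 ± 47.3 CPM (SD, n = 7) against 12.3 ± 4.08 CPM in astrocyte- or NSC-like nuclei, and Hexa, the alpha subunit of beta-hexosaminidase, 159 ± 23.3 against 17.7 ± 7.92 CPM. Their log2 fold changes were 3.38 ± 0.23 and 2.51 ± 0.21. Glb1, the beta-galactosidase, and Ppt1, a palmitoyl-protein thioesterase, were higher by 0.84 and 0.75. All 3 MiT/TFE factors were higher: Tfe3 by 2.55 ± 0.28, Mitf by 1.68 ± 0.19 and Tfeb by 0.95 ± 0.29 (adjusted p = 1.71e-07, 3.75e-07 and 0.00769). Mitf averaged 607 ± 129 CPM and Tfe3 85.9 ± 25.4 CPM over 7 mice. Tfeb ranged from 40.5 to 229 CPM, where 1 UMI was worth 40.5 CPM in wt/wt mouse 3 and 22.9 CPM in wt/wt mouse 1. Of the membrane proteins, Cln3 rose by 2.23 ± 0.25 and Scarb2, the receptor that carries beta-glucocerebrosidase to lysosomes, by 1.32 ± 0.22; of the proton pump, Atp6v0a1, the a1 subunit of the V0 sector, rose by 1.18 ± 0.18. None of the 5 autophagy genes was higher. The 9 lower genes include Map1lc3a (-2.60), Cd63 (-2.30), Gabarap (-1.67) and Atp6v0c (-0.77), and without choroid plexus-like barcodes these values were -0.06, -0.53, 0.13 and 0.58, the last then called higher (adjusted p = 0.0269). The scaling also moves this comparison: with DESeq2's size factors (RLE) in place of TMM the median of all genes shifted by -0.40 on the log2 scale, with shifts of -0.22 in oligodendrocyte-like, -0.16 in endothelial-like, -0.14 in inhibitory neuron- or neuroblast-like and -0.11 in ependymal-like nuclei. Under those factors 13 genes of the set were higher and 13 lower in microglia-like nuclei (1212 and 2993 of all genes, against 1757 and 2174 with TMM), and 6 and 17 in oligodendrocyte-like nuclei (1207 and 2421 of all genes, against 1562 and 1989).

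In oligodendrocyte-like nuclei the cholesterol exporter Npc1, the acid lipase Lipa and the factors Tfeb and Mitf were higher than in the other gated nuclei, while 0 of 7 tested proteases were higher and 5 lower. 7 of 39 genes were higher and 15 lower, where 24.3% of all genes tested were called higher and 30.9% lower. Without choroid plexus-like barcodes, 11 of 37 were higher and 7 lower, where 22.3% of all genes tested were called higher and 30.4% lower. Npc1, the membrane transporter that exports cholesterol from lysosomes, was at 106, 122, 157 and 125 CPM in wt/wt mice 1 to 4 and at 186, 188 and 136 CPM in mut/mut mice 1 to 3. These values lay above those of choroid plexus-like barcodes (0 to 31.1 CPM) and, with 1 exception, above the 42.3 to 121 CPM of microglia-like nuclei (log2 fold change 1.59 ± 0.20, adjusted p = 1.93e-06). Lipa, the acid lipase that frees cholesterol from its esters, rose by 1.55 ± 0.23 (adjusted p = 1.42e-05; 75.0 ± 26.6 CPM, n = 7). Lamp1 and Scarb2, abundant glycoproteins of the lysosomal membrane, rose by 1.25 ± 0.24 and 1.34 ± 0.20, and the pump accessory gene Atp6ap1 by 0.63 ± 0.25. Tfeb was at 173, 99.4, 157 and 107 CPM in the wt/wt and 90.7, 115 and 93.6 CPM in the mut/mut mice (log2 fold change 1.35 ± 0.19, adjusted p = 1.06e-05). Its mean in oligodendrocyte-like nuclei, 119 ± 32.5 CPM, did not differ beyond the spread from the 116 ± 68.9 CPM of microglia-like nuclei. Mitf was at 466, 305, 392 and 353 CPM and 395, 313 and 259.7 CPM, 1.07 ± 0.16 above the other nuclei. Glb1 was lower (-2.48 ± 0.39), as were Ctss (-2.89 ± 0.42), Ctsd (-2.57 ± 0.30) and Ctsz (-1.35 ± 0.34). With choroid plexus-like barcodes left out of the reference, 6 of the lower genes turned direction, and 2 were then called higher: Atp6v0c went from -0.76 ± 0.27 to 0.62 ± 0.22 (adjusted p = 0.0221) and Gabarap from -1.25 ± 0.22 to 0.63 ± 0.22 (adjusted p = 0.0181). Map1lc3a, Cd63, Ctsl and Npc2 were lower against all classes, at -2.44, -1.65, -1.68 and -0.97, and were not called without them (0.23, 0.16, 0.08 and 0.56).

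Endothelial-like nuclei, with 10 to 19 barcodes in each of 4 mice, were marked by Lipa and Laptm4a. Lipa was at 129, 143, 196 and 135 CPM in wt/wt mouse 2 and mut/mut mice 1 to 3, above every mouse of every other class (log2 fold change 2.07 ± 0.40, adjusted p = 1.06e-06). Laptm4a, a small transmembrane protein of late endosomes and lysosomes, was at 386, 358, 371 and 382 CPM in the same mice and rose by 1.42 ± 0.26 (adjusted p = 4.74e-07); choroid plexus-like barcodes held 379 ± 105 CPM. The autophagy genes Map1lc3b and Gabarapl1 rose by 1.07 ± 0.38 and 1.07 ± 0.42. Gabarapl1 was at 29.7 CPM in wt/wt mouse 2 and at 71.6, 218 and 157 CPM in mut/mut mice 1 to 3. Map1lc3b was at 89.1 CPM and at 89.5, 153 and 180 CPM in the same mice. With 1 wt/wt mouse, genotype was not compared in this class. Without choroid plexus-like barcodes all 5 autophagy genes were higher, including Sqstm1 at 0.91 ± 0.41 and Map1lc3a at 0.96 ± 0.43 (adjusted p = 0.0498 and 0.0485). Map1lc3a had been lower against all classes (-1.41 ± 0.36). These 5 genes rested on low counts, 20 to 35 UMIs each over the 4 mice, and Sqstm1 ranged from 22.4 to 240.0 CPM. 4 of 40 genes were higher and 10 lower, with 16.6% and 28.1% of all genes tested. With choroid plexus-like barcodes left out, 8 of 36 were higher (22.2%) and 7 lower (19.4%). Of all genes tested, 22.4% were then called higher and 31.8% lower. The higher genes then included the protease Ctsl (2.04 ± 0.40, adjusted p = 2.44e-06). Cd63 (-3.28 ± 0.50), Mitf (-1.77 ± 0.37), Ctsd (-1.58 ± 0.34) and Lamp2 (-1.43 ± 0.40) were among the lower genes, and Ctss and Hexa had only 2 UMIs each.

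Astrocyte- or NSC-like nuclei, the largest class, held these genes at low levels, as did ependymal-like and inhibitory neuron- or neuroblast-like nuclei. 1 of 43 genes was higher and 32 were lower, where 29.4% of all genes tested were called higher and 34.1% lower. The median log2 fold change was -1.21, beside -0.01 for all genes. Without choroid plexus-like barcodes 20 of 40 were lower, 1 was higher and the median was -0.51. Of all genes tested, 29.9% were then called lower and 25.1% higher. The 1 gene higher against all classes was Atp6v1h, the regulatory H subunit of the V1 sector, by 0.40 ± 0.16 (adjusted p = 0.0421); against the reference without choroid plexus-like barcodes it was not called (0.25 ± 0.16, adjusted p = 0.188), and Gaa, the acid alpha-glucosidase, turned from lower (-0.70 ± 0.25, adjusted p = 0.0239) to higher (0.70 ± 0.20, adjusted p = 0.00828). The proteases Ctss, Ctsd, Ctsz and Ctsb were lower under both references, with log2 fold changes for Ctsd of -3.71 ± 0.31 and -2.95 ± 0.18. Mitf averaged 179 ± 31.0 CPM and Tfeb 54.2 ± 6.61 CPM over 7 mice, the narrowest spread of Tfeb among the 3 glial classes. This class was also the deepest, at 4337209 UMIs against 1313493 in oligodendrocyte-like and 918790 in microglia-like nuclei. The part of counting error in the spread was not tested.

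Ependymal-like nuclei (6 mice with 10 or more) gave 0 higher and 23 lower of 35 genes. Of all genes tested, 25.4% were called higher and 28.0% lower. Of 30 genes tested without choroid plexus-like barcodes, 1 was higher (3.33%) and 8 lower (26.7%), beside 25.98% and 24.5% of all genes. The 1 gene then higher was Cd63, a tetraspanin of multivesicular bodies, by 0.70 ± 0.26 (adjusted p = 0.0294); against all classes it had been lower (-1.23 ± 0.34). Ctss and Lipa had 0 UMIs among 647957, which allows up to 4.63 CPM each (3 counts over the class, counting error only). Inhibitory neuron- or neuroblast-like nuclei (4 mice) gave 0 higher and 19 lower of 43, with 10.2% of all genes called higher and 22.1% lower. Without choroid plexus-like barcodes 0 of 41 were higher and 7 lower (17.1%), with 8.98% and 19.2% of all genes tested. Tfeb and Ctss had 0 UMIs among 274741 there, which allows up to 10.9 CPM, so Tfeb at 90.7 to 173 CPM in oligodendrocyte-like nuclei lay above that limit in every mouse. Mitf was lower there (-2.75 ± 0.47, adjusted p = 6.68e-08). The levels in single mice are drawn for 9 genes in the plot of levels by class.

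**Figure D2:**
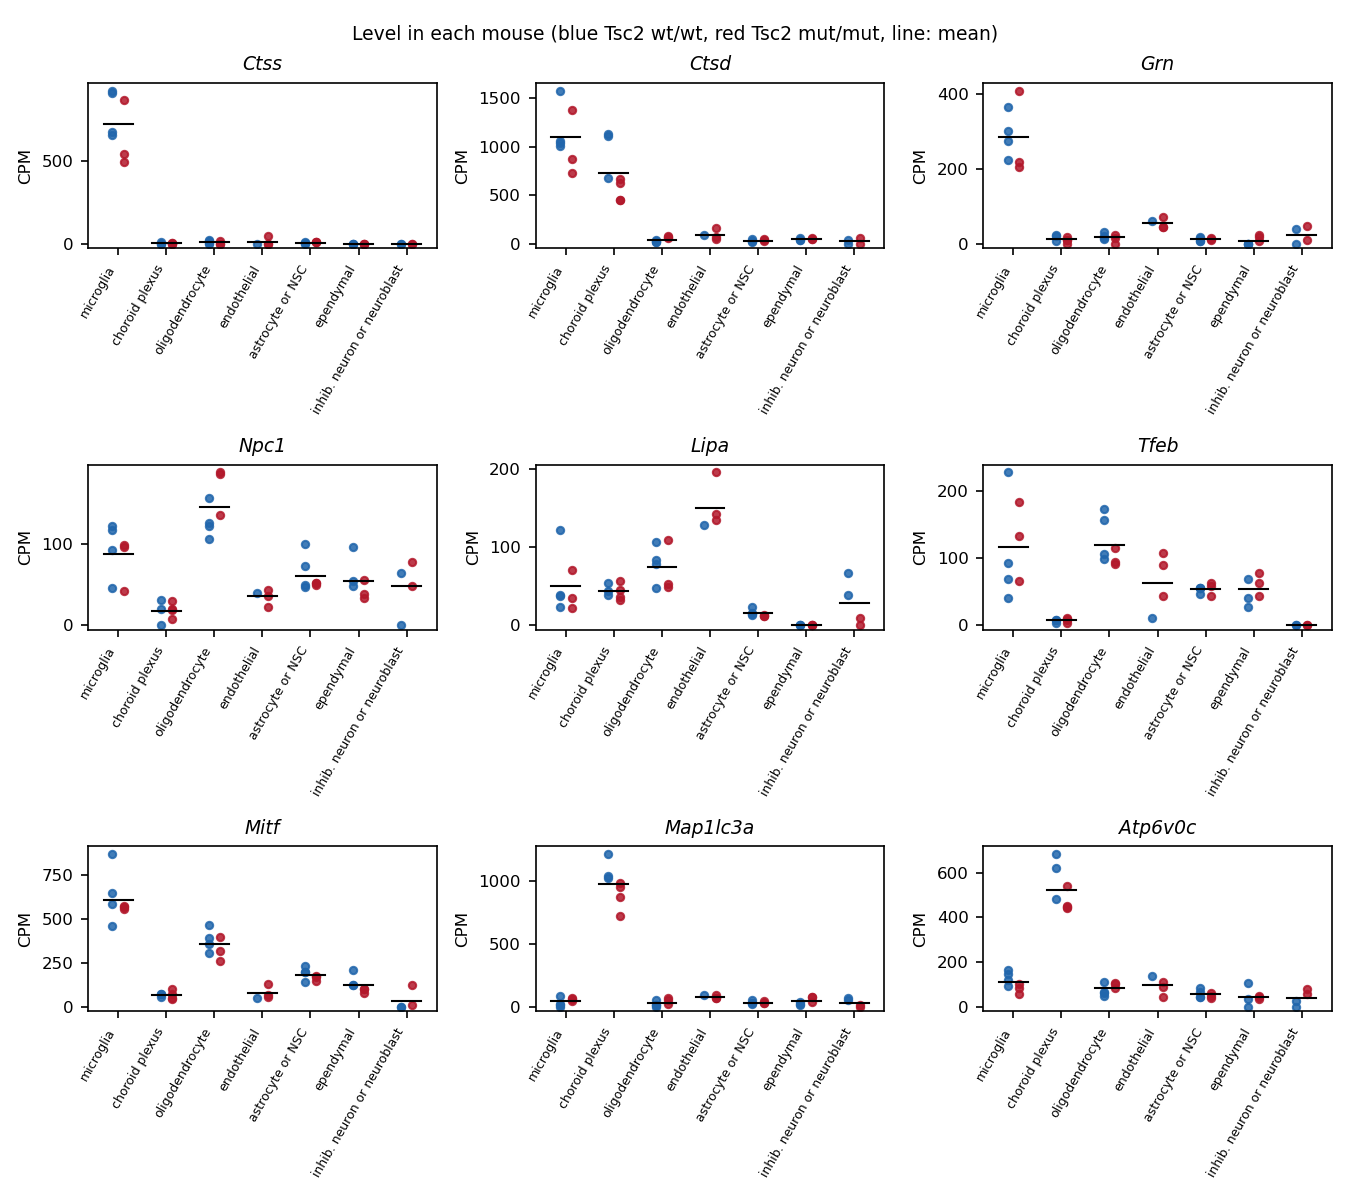
CPM of 9 genes in each mouse with at least 10 barcodes of a class (blue points Tsc2 wt/wt, red points Tsc2 mut/mut, black line mean). Ctss and Grn stand out in microglia-like nuclei of all 7 mice, Npc1 in oligodendrocyte-like nuclei (106 to 188 CPM), Lipa in endothelial-like nuclei (129 to 196 CPM), and Map1lc3a and Atp6v0c in choroid plexus-like barcodes.

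In choroid plexus-like barcodes most of the proteases (7 of 8), V-ATPase genes (7 of 9), autophagy genes (5 of 5), enzymes and activators (7 of 9) and membrane proteins (6 of 8) were higher, and both tested MiT/TFE factors were lower. 32 of 41 genes were higher and 7 lower than in the other gated nuclei; of all genes tested 34.9% were called higher and 50.0% lower, against 78.0% and 17.1% of the set's tested genes. The median was 1.99 for the set and -0.64 for all genes. Map1lc3a, which encodes an LC3 protein of the autophagosome membrane, was at 1029, 1222 and 1043 CPM in wt/wt mice 1, 2 and 4 and 727, 989, 957 and 873 CPM in mut/mut mice 1 to 4, against 22.8 to 53.0 CPM in astrocyte- or NSC-like nuclei (log2 fold change 5.28 ± 0.23, adjusted p = 6.88e-25). All 5 autophagy genes were higher, with Gabarap at 4.34 ± 0.24 and Sqstm1, the cargo receptor p62, at 1.96 ± 0.23. Atp6v0c, the proton-carrying ring subunit of the V-ATPase, was at 685, 480.0 and 623 CPM in the wt/wt and 539, 440.2, 448 and 449.9 CPM in the mut/mut mice, 3.56 ± 0.23 above the other nuclei. The V1 subunit Atp6v1e1 rose by 4.15 ± 0.23 and the renin receptor Atp6ap2 by 3.41 ± 0.25, while Atp6v0a1 was lower (-1.63 ± 0.28). Among membrane and soluble transport proteins Cd63 rose by 4.29 ± 0.24 and Npc2, which hands cholesterol to Npc1, by 3.78 ± 0.25, whereas Npc1 itself was lower (-1.48 ± 0.31), as was Scarb2 (-1.75 ± 0.29). Ctsl rose by 4.12 ± 0.26, Ctsd by 2.73 ± 0.24 and Gm2a, the activator of ganglioside breakdown, by 3.02 ± 0.28. Tfeb (3.57 to 10.9 CPM) and Mitf (42.8 to 102 CPM) were lower (-2.56 ± 0.35 and -1.34 ± 0.22). Ctss, the microglial cathepsin, was at 0 to 7.78 CPM, and the listed microglia markers summed to 4.95 to 26.8 CPM there, against 15284 to 24494 CPM in microglia-like nuclei. The gate used these markers, so their contrast between the 2 classes is in part set by the gate. The low nuclear RNA of these barcodes moves with these values, and its part in them was not tested.

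Nucleus-like barcodes held more RNA of the MiT/TFE factors Mitf and Tfeb and less of the autophagy genes than mitochondria-rich barcodes, compared within each mouse. All 45 genes were tested; 7 were higher and 17 lower in nucleus-like barcodes, where 39.3% of all genes tested were called higher and 38.8% lower. Without choroid plexus-like barcodes 10 were higher and 27 lower, where 43.1% of all genes tested were called higher and 44.3% lower. The median was then -0.98 beside -0.03 for all genes, and the following values are from that fit. Mitf was higher in nucleus-like barcodes by 3.33 ± 0.21 and Tfeb by 2.24 ± 0.16 (adjusted p = 2.98e-10 and 1.11e-12), followed by Cln3 (1.82 ± 0.21), Atp6v1h (1.34 ± 0.13), Lipa (1.33 ± 0.18) and Glb1 (1.22 ± 0.16). All 5 autophagy genes were lower: Map1lc3a (-4.20 ± 0.15), Gabarap (-3.63 ± 0.15), Map1lc3b (-3.59 ± 0.14), Gabarapl1 (-3.33 ± 0.16) and Sqstm1 (-1.37 ± 0.13). Atp6v0c (-3.33 ± 0.12), Gm2a (-3.17 ± 0.15), Npc2 (-2.84 ± 0.13) and Cd63 (-2.66 ± 0.13) were lower too. In mitochondria-rich barcodes Mitf was at 4.32 to 22.2 CPM and in nucleus-like barcodes at 67.6 to 212 CPM over the 8 mice. Map1lc3a was at 350.4 to 476 CPM in mitochondria-rich barcodes and at 354 to 408 CPM in low-count barcodes. A list of cytoplasmic RNAs of excitatory neurons summed to 16936 to 23662 CPM in mitochondria-rich and 903 to 2129 CPM in nucleus-like barcodes; its part in these differences was not tested.

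The direction tended to go with the genomic span of the genes, with exceptions. Cln3 (chromosome 7, 126571207 to 126585817), for example, is short and was higher in nucleus-like barcodes. Map1lc3a (chromosome 2, 155276297 to 155278073) spans 1.78 kb, Gabarap 3.81 kb and Atp6v0c 5.84 kb, whereas Tfeb spans 55.4 kb, Atp6v1h 92.5 kb and Mitf (chromosome 6, 97807052 to 98021349) 214 kb. Across the 45 genes the Spearman correlation of span with the log2 fold change of nucleus-like over mitochondria-rich barcodes was 0.51 without choroid plexus-like barcodes and 0.44 with them. Across 11230 genes, with choroid plexus-like barcodes included, it was 0.56. For choroid plexus-like barcodes over the other gated nuclei it was -0.49 across 41 of the genes and -0.69 across 7651 genes. These correlations are across genes measured in the same libraries, and genes are not independent replicates. The 10 genes higher in nucleus-like barcodes had a median span of 50.5 kb and the 27 lower genes one of 14.9 kb. Over all genes, with choroid plexus-like barcodes included, these medians were 64.3 kb and 14.2 kb. The plot of gene span shows both comparisons.

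**Figure D3:**
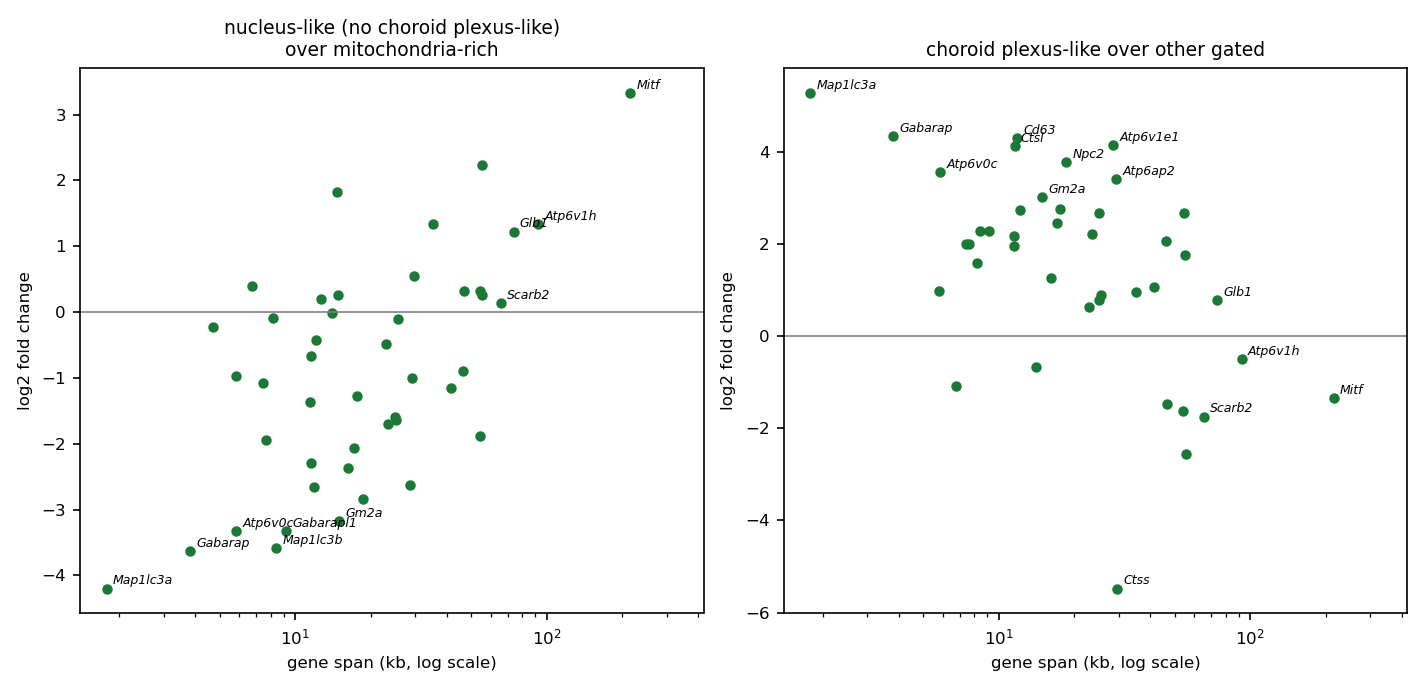
Log2 fold change of each gene against its genomic span in kb (log axis), left for nucleus-like over mitochondria-rich barcodes without choroid plexus-like barcodes, right for choroid plexus-like barcodes over the other gated nuclei. Map1lc3a (1.78 kb) lies at the bottom left and top left, and Mitf (214 kb) on the opposite side of 0.

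Between genotypes, edgeR called no gene of the set with all mice, the count filter, no replicate block and the main mitochondrial limit. In choroid plexus-like barcodes DESeq2 called 2, and a stricter mitochondrial limit and other settings given in the closing section also called genes. In all kept barcodes, 0 of 45 passed by edgeR's quasi-likelihood test and 0 had an unadjusted p below 0.05; 0.0155% of all 12916 genes tested were called and 2.56% had an unadjusted p below 0.05. DESeq2 also called 0 of the 45. Atp6v0c (chromosome 17, 24163866 to 24169702, GRCm38) lies 426 kb from Tsc2, with Neu1 (34931253 to 34935953) and Tfeb (47737030 to 47792419) farther along chromosome 17. In a mixture of cells, fewer cells of a type and less RNA per cell cannot be told apart. Atp6v0c was at 354, 299, 312 and 339.6 CPM in wt/wt mice 1 to 4 and 254, 311, 303 and 395 CPM in mut/mut mice 1 to 4, with the mut/mut values on both sides of the wt/wt values (log2 fold change 0.09 ± 0.26). Tfeb was at 23.8, 22.7, 26.2 and 27.4 CPM and 29.7, 25.9, 23.5 and 8.42 CPM (-0.15 ± 0.25), and Mitf at 94.1, 82.9, 64.8 and 88.8 CPM and 105, 58.3, 78.0 and 23.2 CPM (-0.30 ± 0.30); mut/mut mouse 4 was lowest for both. The nuclear RNAs named above summed to 1447 CPM in kept barcodes of this mouse, against 8824 to 13949.5 CPM in the other 7, and their part in these values was not tested. Sqstm1, whose protein is degraded by autophagy, was at 76.5, 68.6, 66.2 and 72.9 CPM and 63.1, 79.9, 64.7 and 84.2 CPM (0.16 ± 0.22), and the ranges overlapped. The lowest p were those of Atp6v1a (0.46 ± 0.27), Atp6v1b2 (0.26 ± 0.18) and Hexa (-0.19 ± 0.15), each with an adjusted p of 0.999. Lamp1 was the 1 gene of the set without overlap, at 214 to 222 CPM in wt/wt and 169 to 209 CPM in mut/mut mice. The share of all genes without overlap was not computed for kept barcodes. The X-linked genes Lamp2, Atp6ap1, Atp6ap2 and Tfe3 had log2 fold changes of -0.13 ± 0.27, 0.01 ± 0.21, -0.01 ± 0.38 and 0.19 ± 0.20, and Neu1, a sialidase, of -0.21 ± 0.28.

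In nucleus-like barcodes 0 of 45 genes were called and 0 had an unadjusted p below 0.05 (0.0% of all genes tested were called and 1.52% had such a p), and DESeq2 called 0 of the 44 to which it gave an adjusted p. The set had a median log2 fold change of 0.35, beside 0.04 for all genes, and of 0.03 without choroid plexus-like barcodes. The sign of this median rested on mut/mut mouse 4: without it the median was -0.19, with 12 of 45 genes positive against 36 with all mice, and without wt/wt mouse 1 it was 0.63. Gabarapl1 had the lowest p (1.12 ± 0.57, adjusted p = 0.923): it was at 53.3, 31.9, 31.1 and 33.0 CPM in the wt/wt and 35.6, 57.7, 49.8 and 107 CPM in the mut/mut mice. Mut/mut mouse 4 held the highest value, and the other mut/mut values overlapped the wt/wt range. Mouse 4 was also highest for Atp6v1a (141, 72.3, 71.5 and 96.6 CPM and 91.0, 117, 111 and 285 CPM; 1.09 ± 0.64), and for Map1lc3b (0.95 ± 0.51). In mut/mut mouse 4 the listed choroid plexus markers summed to 275868 CPM, against 14338 to 117587 CPM in the other 7 mice; their part in these values was not tested. Atp6v0c (0.71 ± 0.74), Sqstm1 (0.72 ± 0.50), Atp6ap2 (0.53 ± 0.76), Atp6ap1 (0.27 ± 0.54), Lamp2 (0.20 ± 0.49), Neu1 (-0.05 ± 0.47), Tfeb (-0.21 ± 0.32), Tfe3 (-0.06 ± 0.28) and Mitf (-0.23 ± 0.29) had adjusted p of 0.923 to 0.989. The SE of these values, 0.28 to 0.76, limits what could be detected in this comparison.

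Mitochondria-rich barcodes gave the tightest values, and 0 of 44 genes were called by edgeR (0.276% of all genes tested) and 0 by DESeq2, which gave an adjusted p for 15 of them. 5 had an unadjusted p below 0.05 (11.4%, beside 13.9% of all genes). Hexa was at 29.3, 26.1, 23.5 and 23.9 CPM in wt/wt mice 1 to 4 and 16.8, 20.3, 20.6 and 18.2 CPM in mut/mut mice 1 to 4. The genotypes did not overlap for 6 of 44 tested genes, nor for 7.38% of all genes tested. For Hexa all 4 mut/mut values were below all 4 wt/wt values (log2 fold change -0.44 ± 0.16, adjusted p = 0.225). Lamp1 was likewise separated, at 301, 276, 279.5 and 289.6 CPM and 243, 246, 266 and 236 CPM (-0.22 ± 0.09, adjusted p = 0.282), and so was Cd63 (-0.22 ± 0.10, adjusted p = 0.322). Atp6v0c was at 394, 404, 400.4 and 438 CPM and 367, 373, 389 and 382 CPM without overlap, with a difference of -0.13 ± 0.09 and an adjusted p of 0.582. Atp6v1a lay the other way (wt/wt 126 ± 10.3 CPM, mut/mut 148 ± 3.64 CPM, SD, n = 4 each). Tfeb (0.34 ± 0.26), Tfe3 (0.41 ± 0.23), Mitf (0.21 ± 0.42), Sqstm1 (-0.12 ± 0.11), Lamp2 (-0.14 ± 0.12), Atp6ap1 (-0.10 ± 0.11), Atp6ap2 (-0.09 ± 0.14) and Neu1 (-0.23 ± 0.27) were not called. Whether the genotype difference depended on the kind of barcode was tested as an interaction over 13026 genes, of which 0.0% were called and none of the 45, and 0 had an unadjusted p below 0.05, beside 4.86% of all genes; Gabarapl1 (1.00 ± 0.52), Ctsf (0.78 ± 0.41) and Hexa (0.53 ± 0.29) had the lowest p, each with an adjusted p of 0.736.

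**Figure D4:**
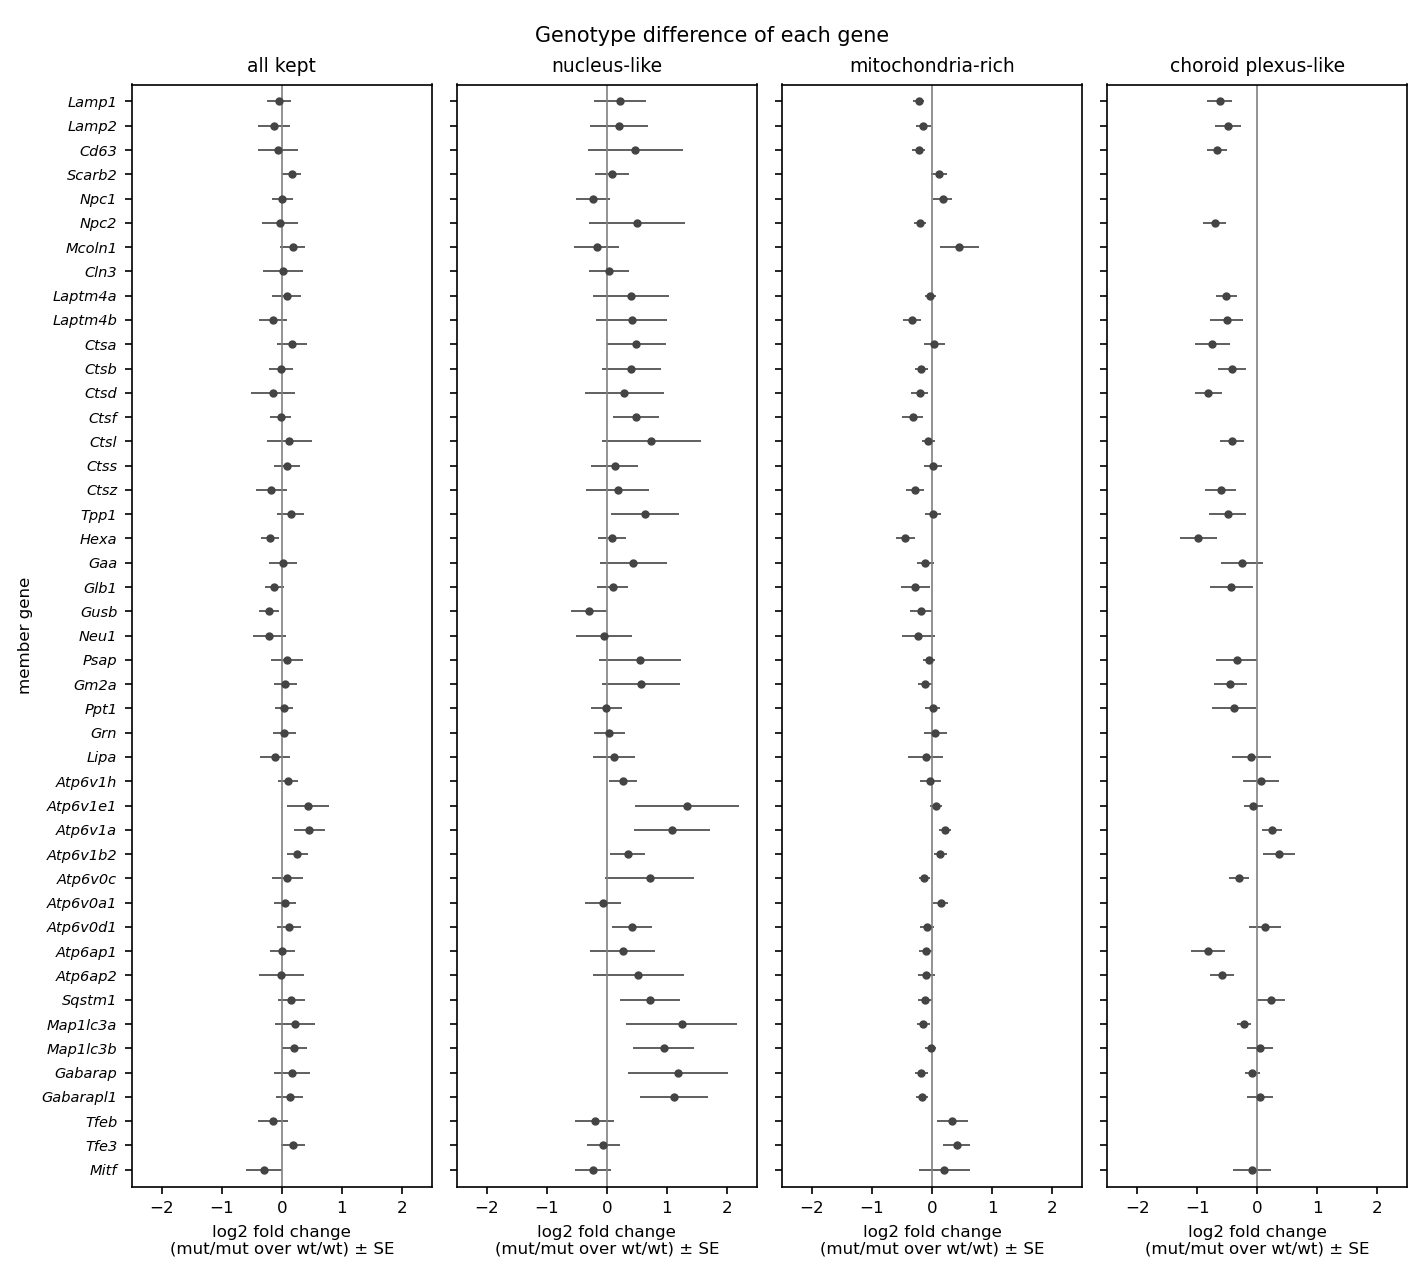
Log2 fold change of each gene in Tsc2 mut/mut over Tsc2 wt/wt mice, with bars of 1 SE, in 4 sets of barcodes; genes that were too low to be tested have no point. Intervals are widest in nucleus-like barcodes (Gabarapl1 1.12 ± 0.57) and narrowest in mitochondria-rich barcodes (Lamp1 -0.22 ± 0.09), and most points of the choroid plexus-like panel lie left of 0.

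Within classes, astrocyte- or NSC-like nuclei (4 wt/wt and 3 mut/mut mice) gave 0 of 36 genes called by edgeR (0.199% of all genes tested); 1 had an unadjusted p below 0.05, beside 8.54% of all genes. DESeq2 called 0 genes of the set in this class and in each of the next 3. Lamp1 had the lowest p, at 64.8, 58.0, 82.4 and 46.6 CPM in wt/wt and 38.1, 51.3 and 43.2 CPM in mut/mut mice, and the groups overlapped (-0.58 ± 0.24, adjusted p = 0.477). Atp6v0a1 was at 90.7, 119, 85.4 and 127 CPM and 131, 146 and 149 CPM, with all mut/mut values above the wt/wt values (0.32 ± 0.18, adjusted p = 0.675; 9.19% of all genes tested did not overlap). Atp6v1h (0.34 ± 0.18), Atp6v0c (-0.32 ± 0.27), Mitf (-0.26 ± 0.17), Lamp2 (-0.23 ± 0.18), Atp6ap1 (-0.08 ± 0.32), Atp6ap2 (-0.09 ± 0.35), Tfeb (-0.06 ± 0.22) and Sqstm1 (0.01 ± 0.26) were not called. In microglia-like nuclei (4 and 3 mice), 0 of 29 were called (0.0658% of all genes), and 2 had an unadjusted p below 0.05, beside 7.4% of all genes. Ctsz was at 183, 213, 445 and 239 CPM and 89.8, 239.9 and 127 CPM with overlapping ranges (-0.81 ± 0.36, adjusted p = 0.641), and Atp6v1h had a log2 fold change of 0.96 ± 0.44 with the same adjusted p. The others named there were Atp6v0c (-0.64 ± 0.38), Sqstm1 (-0.85 ± 0.55), Tfe3 (-0.47 ± 0.39), Tfeb (0.26 ± 0.46), Mitf (-0.10 ± 0.23) and Lamp2 (-0.02 ± 0.28). Over all 45 genes the genotypes did not overlap in this class for Cln3, Ctsl and Gusb, lower in mut/mut mice. Map1lc3b and Gabarapl1 were higher there without overlap, on 41 and 24 UMIs in all. The share of all genes without overlap was not computed for microglia-like nuclei. In oligodendrocyte-like nuclei (4 and 3 mice) 0 of 30 were called (0.0258% of all genes), and 1 had an unadjusted p below 0.05, beside 6.25% of all genes. Ctsd was at 13.3, 35.3, 15.7 and 27.9 CPM in wt/wt and 54.4, 83.6 and 63.4 CPM in mut/mut mice, without overlap and at low counts (1.16 ± 0.46, adjusted p = 0.679); 6.89% of all genes tested did not overlap. The nuclear RNA sum was also apart, at 54513 to 84040.1 CPM in wt/wt and 41611 to 45886 CPM in mut/mut mice, and its part in the Ctsd value was not tested. Ctsb (0.71 ± 0.40), Cd63 (0.61 ± 0.41), Tfeb (-0.38 ± 0.32), Mitf (-0.25 ± 0.23), Atp6v0c (0.33 ± 0.35), Sqstm1 (0.34 ± 0.40), Atp6ap1 (0.20 ± 0.39), Atp6ap2 (0.05 ± 0.37) and Lamp2 (-0.17 ± 0.30) were not called either. Only 5 genes were high enough to test in ependymal-like nuclei (3 and 3 mice), none was called (0.0% of all genes) and 0 had an unadjusted p below 0.05, beside 8.2% of all genes. Mitf (-0.60 ± 0.36), Atp6v1h (0.72 ± 0.45) and Scarb2 (0.31 ± 0.40) had the lowest p there.

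In choroid plexus-like barcodes most genes of the set had lower values in mut/mut than in wt/wt mice: 7 of 33 tested had a positive log2 fold change. 0 of 33 tested passed by edgeR's quasi-likelihood test (0.812% of all genes tested were called), and 12 had an unadjusted p below 0.05, all lower in mut/mut mice (36.4%, beside 15.1% of all genes). The median log2 fold change was -0.42, beside -0.01 for all genes. Leaving out 1 mouse gave medians of -0.56 to -0.23 and 4 to 18 genes with an unadjusted p below 0.05: the median was -0.23 without wt/wt mouse 4, -0.25 without wt/wt mouse 1 (4 such genes) and -0.56 without mut/mut mouse 1. Cd63 was at 1161, 793 and 1222 CPM in wt/wt mice 1, 2 and 4 and 655, 732, 660.4 and 557 CPM in mut/mut mice 1 to 4 (-0.67 ± 0.16, adjusted p = 0.0714). Npc2 was at 495, 291 and 455 CPM and 267, 237, 243 and 249.8 CPM (-0.71 ± 0.19, adjusted p = 0.087), and Ctsd at 1132, 676 and 1109 CPM and 670.4, 623, 452 and 449.9 CPM (-0.82 ± 0.23, adjusted p = 0.124). The genotypes did not overlap for these 3 genes nor for Hexa, Atp6ap2 and Map1lc3a, which makes 6 of 33 tested genes (18.2%), all lower in mut/mut mice; of all genes tested 11.3% did not overlap, 7.28% with mut/mut lower. Among the wt/wt mice, mouse 2 was the lowest for Cd63, Npc2, Ctsd and Atp6ap2. Atp6v0c was at a mean of 596 ± 105 CPM in 3 wt/wt and 469 ± 46.4 CPM in 4 mut/mut mice (-0.30 ± 0.16), with overlap. Atp6ap1 (-0.82 ± 0.28), Atp6ap2 (-0.58 ± 0.20), Lamp2 (-0.49 ± 0.22), Mitf (-0.09 ± 0.31) and Sqstm1 (0.23 ± 0.23) were not called. The median UMI count of these barcodes was 8605 to 12177 in wt/wt and 4820.0 to 10217 in mut/mut mice, with overlap. The part of this depth in the genotype difference was not tested. The count depended on the test and on single mice. Cd63 and Ctsd were called by DESeq2. Without wt/wt mouse 2, 12 of 37 genes were called, all lower. Without mut/mut mouse 1, 3 of 35 were called (Cd63, Npc2 and Ctsd), and with any other mouse left out, 0. Calls over all genes moved too, from 2 to 149 over the settings run, beside 25 of 3079 in the main fit. For each fit without 1 mouse, the shares of all genes called or with an unadjusted p below 0.05 are not given here. The counts from those fits therefore do not tell the set from all genes.

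**Figure D5:**
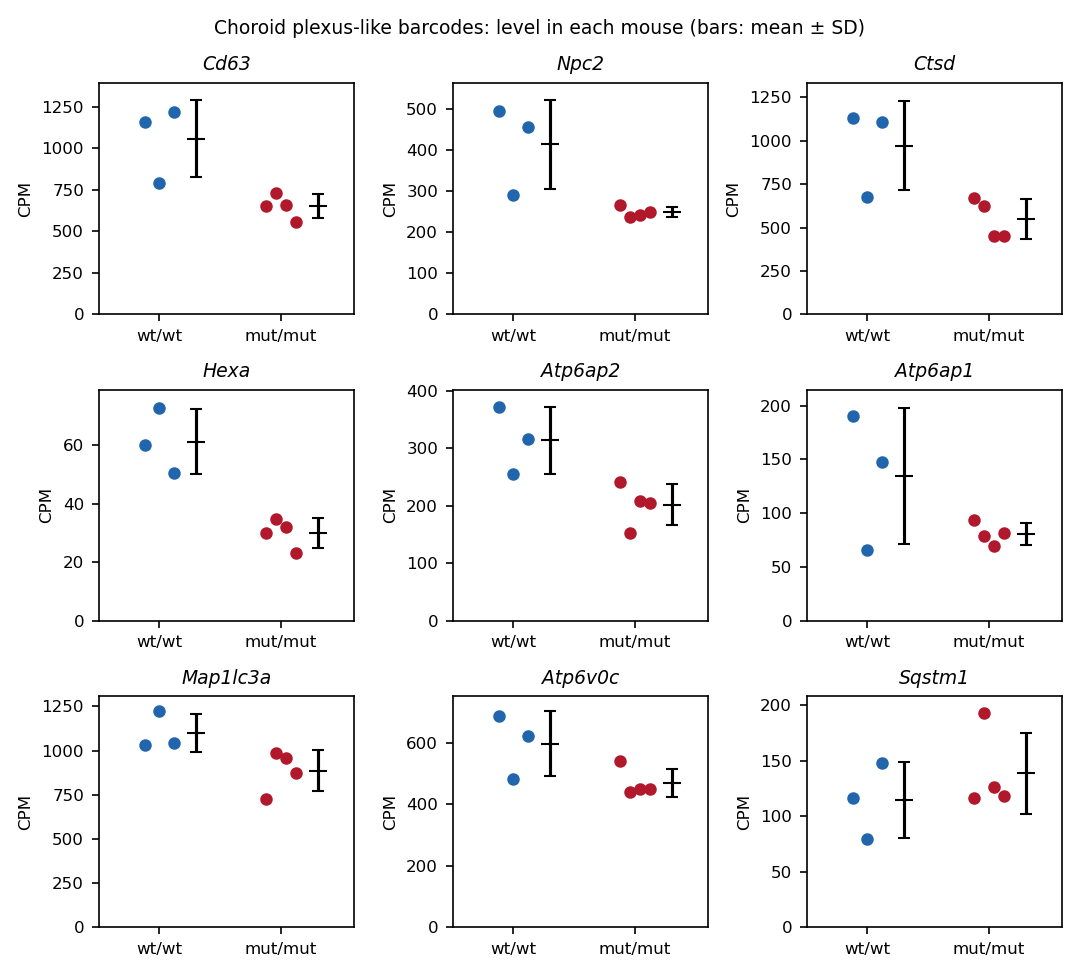
CPM of 9 genes in choroid plexus-like barcodes of each mouse (blue points: 3 Tsc2 wt/wt mice, red points: 4 Tsc2 mut/mut mice, black bars: mean ± SD). All mut/mut points lie below the wt/wt points for Cd63, Npc2, Ctsd, Hexa, Atp6ap2 and Map1lc3a, and the groups overlap for Atp6ap1, Atp6v0c and Sqstm1.

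Other genes of the same pathways were counted from 5 further lists, which hold none of the 45 genes. Between genotypes in kept and nucleus-like barcodes no gene of any list was called; in mitochondria-rich barcodes 1 of 18 other lysosomal membrane proteins was higher, and in choroid plexus-like barcodes 1 of 6 other V-ATPase subunits was lower, Atp6v0b, a V0 ring subunit (-0.75 ± 0.17, adjusted p = 0.0357). In microglia-like nuclei 11 of 15 other lysosomal enzymes were higher and 0 lower (median 2.69), and 8 of 12 other membrane proteins were higher and 2 lower. In oligodendrocyte-like nuclei 15 of 30 other autophagy genes were higher and 2 lower (median 0.50), and 1 of 13 other enzymes were higher and 8 lower. In choroid plexus-like barcodes 6 of 7 other V-ATPase subunits were higher and 0 lower (median 3.23), 19 of 29 other autophagy genes were lower and 6 higher (median -1.10), and of the genes that control mTORC1 and Tfeb at the lysosome 9 of 18 were higher and 8 lower. In astrocyte- or NSC-like nuclei the mTORC1 and Tfeb control list split 5 higher to 7 lower of 20. Percentages of all genes called in these classes are those given above.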

How the data were processed

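Nuclei from the V-SVZ of 8 mice were sorted for tdTomato (100000 per mouse), and libraries were made with the 10x Genomics 3′ kit version 3.1. Per the file headers and the study's methods, the authors made the deposited counts with Cell Ranger 7.0.1 against GRCm38 with 60000 barcodes forced per library; Seurat version 4 stands in the submitters' processing notes. The deposited values are whole-number UMI counts per gene and barcode with no normalization, and all 60000 barcodes per library were used. Members and lists were chosen with earlier results of these data known. Counts were summed per mouse over barcode sets; the 13 genes of the mitochondrial genome were left out of library sizes and tests. Doublets were not called beyond the gate's margin of 2 markers. No class had 10 barcodes in every mouse, so mice with at least 10 were used, where each genotype kept 3 (genotype) or 4 mice remained (class against the rest); this rule was set after seeing the data. Sums were tested with edgeR 4.0.16 (TMM, filterByExpr, robust quasi-likelihood test; R 4.3.3), with the mouse as a block within mice and Benjamini-Hochberg adjustment over all genes; DESeq2 1.42.0 was an alternative. Named genes are those with adjusted p below 0.05, at most 10 by fold change, otherwise the 3 lowest p, plus chromosome 17, X-linked and MiT/TFE members and Sqstm1 in genotype comparisons; others in the text were chosen after their values were seen. The fits were checked on simulated data, where genes changed by a log2 fold change of 2 were recovered at 94% in the kept-barcode (12916 genes), 11% in the nucleus-like (11048 genes) and 97% in the choroid plexus-like genotype comparison (3079 genes). At a log2 fold change of 1 the recovery was 21%, 0% and 66% in these, and 75% in the mitochondria-rich comparison. Between 0 and 13 unchanged genes per fit were called. Gene spans and positions are from GENCODE M21 (GRCm38), promoters from RefSeq. Alternatives tried are given in the closing section.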

Additional observations from a re-analysis of the deposited data

Results flagged for a closer look

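In 4 mice of 1 genotype, a value was picked out where its gap to the nearest other mouse, divided by the range of the 4, exceeded Dixon's 95% critical value for 4 values. Of 88 such groups 10 were picked out, where chance picks out about 1 in 20. In kept barcodes these were Atp6v1b2 in mut/mut mouse 2 (107 CPM, nearest other mouse 94.1) and Atp6ap2 in mut/mut mouse 4 (81.8 CPM, nearest 51.3). In nucleus-like barcodes Gabarapl1 stood apart in wt/wt mouse 1 (53.3 CPM, nearest 33.0). Mut/mut mouse 4 stood apart in nucleus-like barcodes for Atp6v1a (285 CPM, nearest 117), Lamp2 (209.5, nearest 144), Atp6v0c (425, nearest 152) and Atp6ap2 (194, nearest 66.0); 169 of its 199 nucleus-like barcodes were choroid plexus-like, and the part of this share in the 4 values was not tested. In mitochondria-rich barcodes Cd63 was lowest in mut/mut mouse 1 (222 CPM, nearest 230.0), and in choroid plexus-like barcodes Atp6v0c was highest in mut/mut mouse 1 (539 CPM, nearest 449.9) and Sqstm1 in mut/mut mouse 2 (193 CPM, nearest 127).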

How the results depend on the processing

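Between genotypes, 0 of the 45 genes were called under every alternative run except in choroid plexus-like barcodes, where DESeq2 called 2, no filter 2, a mitochondrial limit of 10% 1 and the replicate block 2, and leaving out single mice gave 0 to 12. Without choroid plexus-like barcodes, an alternative chosen after seeing the data, 21 genes were called in astrocyte- or NSC-like, 7 in inhibitory neuron- or neuroblast-like and 9 in ependymal-like nuclei, against 33, 19 and 23, and 37 against 24 between nucleus-like and mitochondria-rich barcodes. There 21 genes called lower in the 6 other classes turned positive, of which 6 were then called higher (Gaa in astrocyte- or NSC-like, Atp6v0c in microglia-like, Atp6v0c and Gabarap in oligodendrocyte-like, Cd63 in ependymal-like and Map1lc3a in endothelial-like nuclei). Among the named genes these turns were Atp6v1e1 in astrocyte- or NSC-like nuclei (0.0269), Map1lc3a (0.23), Ctsl (0.0812) and Cd63 (0.16) in oligodendrocyte-like, and Map1lc3a in ependymal-like (0.39) and endothelial-like nuclei (0.96); choroid plexus-like barcodes hold the highest levels of these 4 named genes and were part of the reference. Over the named genes and alternatives, 2354 values were counted as unchanged. A value called in the main fit counted so if it kept its direction and call. An uncalled value did so if it stayed uncalled and shifted by less than the spread between mice or the SE, whatever its sign. Of called values, 26 lost the call in the same direction and 6 turned. Of uncalled values, 16 gained the call and 27 moved by more. Leaving out 1 mouse gave 22 to 26 calls in microglia-like, 19 to 22 in oligodendrocyte-like, 30 to 33 in astrocyte- or NSC-like, 11 to 13 in endothelial-like, 23 to 27 in ependymal-like, 13 to 18 in inhibitory neuron- or neuroblast-like nuclei and 38 to 41 in choroid plexus-like barcodes. Over all settings, 22 to 26 genes of the set and 3136 to 7025 of all genes were called in microglia-like nuclei. These were 18 to 28 and 2841 to 7245 in oligodendrocyte-like and 21 to 33 and 3992 to 8257 in astrocyte- or NSC-like nuclei. They were 11 to 15 and 2692 to 4117 in endothelial-like and 9 to 32 and 2244 to 5878 in ependymal-like nuclei. Inhibitory neuron- or neuroblast-like nuclei had 7 to 19 and 1996 to 3160, and choroid plexus-like barcodes 36 to 41 and 5574 to 11023. In the genotype comparisons counts over all genes moved too, given here for the main fit with the range over all settings. They were 2 (range 0 to 7) in kept, 29 (range 5 to 230) in mitochondria-rich and 25 (range 2 to 149) in choroid plexus-like barcodes. In nuclei they were 14 (range 7 to 144) in astrocyte- or NSC-like and 2 (range 0 to 34) in microglia-like. They were 1 (range 0 to 28) in oligodendrocyte-like and 0 (range 0 to 95) in ependymal-like nuclei, and 0 (range 0 to 1) in nucleus-like barcodes. The cause was not tested. The replicate numbers do not pair the mice by the labels, and the deviations of same-numbered mice correlated at -0.12, 0.07, -0.03 and 0.07 over 9397 genes; with the replicate block 0 of the 45 were called in kept barcodes and 2 (Cd63 and Ctsd) in choroid plexus-like barcodes. Depth limits the classes: 5 of the 45 genes could be tested between genotypes in ependymal-like and 29 in microglia-like nuclei.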

Other observations

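Oligodendrocyte progenitor-like nuclei reached 10 barcodes in 1 mouse only, mut/mut mouse 3, and enter no comparison. Their 58227 UMIs make 3 counts worth 51.5 CPM. Psap was at 258 CPM, Atp6v0a1 at 137 CPM and Ppt1 and Atp6v1h at 120.2 CPM each. Mitf was at 85.9 CPM there, beside 259.7 CPM in the oligodendrocyte-like and 171 CPM in the astrocyte- or NSC-like nuclei of the same mouse.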
